A study of Drosophila melanogaster with 30 samples.

Results

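RNA levels in Kc cells 4 days after RNA interference (RNAi) against Myb were set beside those after RNAi against E2F2. The comparison holds 6 arrays, chosen by their titles, out of 30 in the series: 3 of Myb knockdown and 3 of E2F2 knockdown. Kc is a line of Drosophila cells with a tetraploid female karyotype, grown in suspension, and it resembles blood cells (hemocytes). RNA was transfected into the cells to deplete each target, and all groups, control included, went through RNAi. The 3 control arrays, treated with a nonspecific RNA made from a plasmid, are given beside both knockdowns. The remaining 21 arrays, of 7 other knockdowns, entered through the estimate of the spread between arrays and through the filter on low signals, which a probe set could pass on any 3 or more of the 30 arrays. Whether the 3 arrays of a knockdown stand for independent cultures is not said in the labels. The p-values therefore cover the spread among these samples alone, which may be technical.

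Myb and E2F2 are both part of the Drosophila dREAM or Myb-MuvB complex, which sits on the promoters of many genes. E2F2 is the repressor member of the fly E2F family: with DP and a retinoblastoma protein (RBF) it holds target genes off, among them genes of the germ line and of sexual differentiation. Myb, the only Myb oncoprotein of the fly, is known for driving genes of mitosis, and it also takes part in repression with the MuvB subunits Mip120, Mip130, Mip40 and Lin-52. Setting the 2 knockdowns directly against each other asks which transcripts respond differently to the loss of the one subunit or of the other.

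Differences below are log2 differences, Myb minus E2F2 knockdown, where 1 is a 2-fold change. A probe set was called where its adjusted p in limma was below 0.05. Of 7794 probe sets tested, 2522 (32.4%) were called, 1083 (13.9%) higher and 1439 (18.5%) lower in Myb knockdown. Quantile normalization turned the balance to 1451 higher and 1287 lower. Differences of at least 2-fold were found for 86 called probe sets, 22 higher and 64 lower. Read by the brightest probe set of each gene, 2046 of 6393 genes (32.0%) were called. Of these 874 (13.7%) were higher and 1172 (18.3%) lower, and these shares are the background for the counts of gene lists below. Against control, 451 probe sets (5.79%) were called in Myb knockdown, 184 higher (2.36%) and 267 lower (3.43%), and 1987 (25.5%) in E2F2 knockdown, 1276 higher (16.4%) and 711 lower (9.12%). The excess of higher calls after E2F2 knockdown moved with the scaling, to 1100 higher and 1078 lower after quantile normalization and 1435 higher and 425 lower with arrays centred on their medians. By gene the shares were 5.8% in Myb knockdown (2.3% higher, 3.5% lower) and 25.1% in E2F2 knockdown (16.0% higher, 9.12% lower). Both of these comparisons use the same control arrays, and they are given only as values side by side. Probe sets whose 3 Myb and 3 E2F2 values did not overlap made up 44.3% of those tested (20.8% higher, 23.4% lower), so a gap between the groups is common here.

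The arrays were alike in their medians, from 6.54 to 6.57 in Myb knockdown and from 6.52 to 6.54 in E2F2 knockdown. The spread of values over all probe sets was narrower in Myb knockdown (SD 1.719 to 1.751) than in E2F2 knockdown (1.778 to 1.79). Control arrays (1.714 to 1.755) were like those of Myb knockdown. Myb replicates varied more than those of E2F2: the median SD of a probe set was 0.084 in Myb and 0.053 in E2F2 knockdown, and Myb replicate 3 had the lowest correlation with the other arrays of its group, 0.989 across probe sets, against 0.9943 to 0.9979 for the other 5. In control the median SD was 0.076, and control replicate 3 had a correlation of 0.991, so control was nearer to Myb than to E2F2 knockdown. The difference between 3' and 5' control probe sets, a sign of RNA quality, lay from 0.54 to 0.82 in Myb and from 0.57 to 0.80 in E2F2 knockdown for actin. Control probe sets for bacterial, yeast and mouse transcripts, which have no counterpart in the fly, had means from 3.03 to 6.31 in these groups. A signal in that range can be background, and a difference is then only a lower bound if the weaker of its means falls inside it. Such genes were Arpc3B, CG34355, gNacalpha, swa, hdm, vas, CG5250, CROT, CG7607, Gr63a, stai, spn-E, squ, Spc105R, Keap1, bam, Cap-D3, cuff and RpS28a. For COX4L, eater, LysX, Psf3 and tej both means lay there, and their differences bound nothing.

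The identity of the cells was checked with marker genes. The hemocyte genes Hml (hemolectin), Pxn and Ppn were among the strong signals, Hml at 10.69 ± 0.06 in Myb knockdown and 11.51 ± 0.12 in E2F2 knockdown (SD, n = 3 each), whereas NimC1, Sr-CI and crq lay in the background range in both. Sxl, the female-specific splicing regulator, was at 8.14 ± 0.13 in Myb and 8.32 ± 0.06 in E2F2 knockdown. The msl-2 transcript, which the marker list held as male, was at 6.89 ± 0.06 in Myb and 6.89 ± 0.03 in E2F2 knockdown, also above the background range. These levels alone did not settle the sex of the cells. Of 7 neuronal markers on the array, 4 had all means in the background range, elav among them, and so had 4 of 6 muscle markers and 3 of 5 testis markers. The same held for 4 of 11 hemocyte markers, 2 of 6 germ line markers and 0 of 5 gut and fat body markers. The number of markers above background therefore did not set the hemocyte list apart from all others.

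The RNAi targets were examined first. The E2f2 transcript measured 8.63, 8.79 and 8.42 in Myb knockdown, 6.22, 6.55 and 6.17 in E2F2 knockdown and 8.75, 8.81 and 8.51 in control. All 3 E2F2-knockdown arrays lay below every other array of these groups, and Myb knockdown overlapped control. The difference was 2.3 (SE 0.088, adjusted p = 3.77e-19), which puts the transcript in E2F2 knockdown at 20.4% of its level in Myb knockdown. No probe set carried the name Myb in the annotation used here, so the depletion of Myb itself was not checked.

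The other subunits differed little. Of 11 dREAM subunits and partners tested, 3 were higher (E2f2, lin-52 and Caf1-55) and 1 was lower (l(3)mbt), with a median difference of 0.01; without Myb replicate 3 the lower genes were 2. The MuvB subunit lin-52 measured 7.93, 7.97 and 7.76 in Myb knockdown, against 7.48, 7.58 and 7.57 in E2F2 knockdown, apart by 0.34 (SE 0.0682, adjusted p = 0.000259). The gene l(3)mbt, whose product is a chromatin-binding repressor that copurifies with the complex, measured 6.71, 6.54 and 6.61 in Myb knockdown, against 7.01, 6.99 and 6.91 in E2F2 knockdown, a difference of -0.35 (SE 0.0724, adjusted p = 0.000357). Caf1-55, a histone-binding subunit, differed by 0.22 (SE 0.0776, adjusted p = 0.0297); its call ended without Myb replicate 2 (adjusted p = 0.168), without E2F2 replicate 1 (0.1) or 2 (0.0847) and with arrays centred on their medians (0.0808). The DNA-binding subunit mip120 differed by -0.12 (SE 0.0888), mip130 by 0.01, mip40 by 0.01, Dp by 0.17, Rbf2 by -0.13, HDAC1 by 0.12 and E2f1, the activator E2F, by -0.09. None of these 7 passed the test, with adjusted p from 0.0849 to 0.95 in limma.

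**Figure D1:**
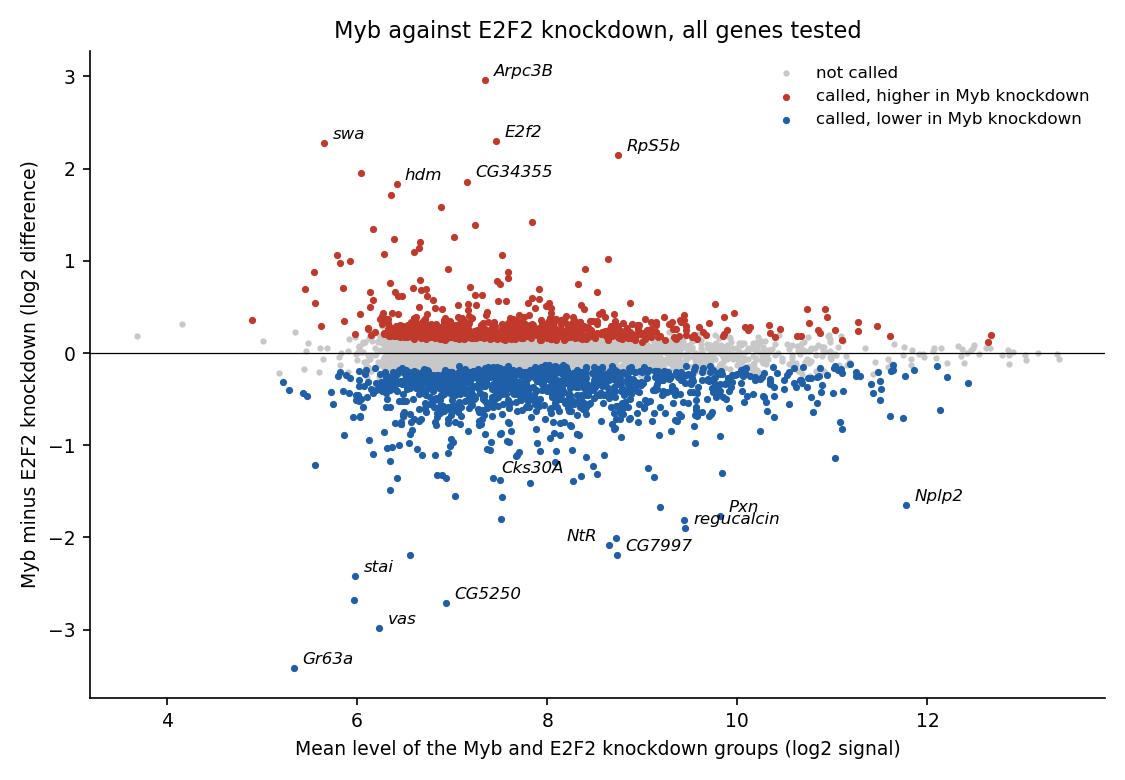
Each of the 6393 genes tested is a point, with the mean level of both knockdowns on the x axis (log2 signal) and the difference, Myb minus E2F2 knockdown, on the y axis (log2). The 874 called genes that were higher in Myb knockdown and the 1172 that were lower lie mostly within 1 unit of 0, and the labelled genes lie outside that range, from Arpc3B at 2.96 to Gr63a at -3.42.

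The lowest genes in Myb relative to E2F2 knockdown included a set that was at its control level after Myb knockdown and far above it after E2F2 knockdown. Gr63a, which encodes a subunit of the carbon dioxide receptor of the antenna, measured 3.62, 3.5 and 3.77 in Myb knockdown, 6.97, 7.1 and 7.1 in E2F2 knockdown and 3.55, 3.87 and 3.84 in control. The germ line RNA helicase gene vas measured 4.83, 4.6 and 4.81 in Myb knockdown, 7.7, 7.72 and 7.75 in E2F2 knockdown and 4.85, 4.59 and 4.8 in control. CG5250 measured 5.39, 5.65 and 5.71 in Myb knockdown, 8.24, 8.38 and 8.26 in E2F2 knockdown and 5.31, 5.53 and 5.83 in control. In each of the 3 genes the Myb and control arrays overlapped, and all E2F2-knockdown arrays were higher. Relative to E2F2 knockdown, Gr63a differed by -3.42 (SE 0.118, adjusted p = 2.49e-20), vas by -2.98 (SE 0.126, adjusted p = 4.34e-18) and CG5250 by -2.71 (SE 0.109, adjusted p = 1.4e-18). The fold of vas, 7.87, and that of Gr63a, 10.7, are bounds, since in Myb knockdown both transcripts had signals in the background range. CG5080 and CG7997 had higher signals, with Myb knockdown below control and E2F2 knockdown above it. CG5080 measured 7.58, 7.7 and 7.88 in Myb knockdown, 9.71, 9.76 and 9.73 in E2F2 knockdown and 8.13, 7.93 and 7.93 in control, and its difference was -2.01 (SE 0.0856, adjusted p = 4.34e-18). CG7997 measured 7.54, 7.59 and 7.79 in Myb knockdown, 9.86, 9.81 and 9.81 in E2F2 knockdown and 7.98, 8.13 and 8.17 in control and had a difference of -2.19 (SE 0.0704, adjusted p = 5.8e-21).

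In stai, nAChRbeta3, NtR and regucalcin the larger distance from control was that of Myb knockdown. The stathmin gene stai, whose product binds tubulin, measured 4.63, 4.75 and 4.94 in Myb knockdown, 7.15, 7.23 and 7.2 in E2F2 knockdown and 7.09, 7.01 and 6.66 in control. Its 3 Myb arrays were far below all others, and the E2F2 arrays were just above the control arrays. The difference between the knockdowns was -2.42 (SE 0.102, adjusted p = 4.01e-18), and a second probe set of stai differed by -2.77 (adjusted p = 1.69e-19). The acetylcholine receptor subunit gene nAChRbeta3 measured 8.3, 8.37 and 8.39 in Myb knockdown, 9.96, 10.08 and 10.04 in E2F2 knockdown and 9.81, 9.65 and 9.9 in control, a difference of -1.67 (SE 0.0609, adjusted p = 1.19e-19). NtR, which encodes a channel of the same ligand-gated family, measured 7.55, 7.59 and 7.68 in Myb knockdown, 9.66, 9.7 and 9.69 in E2F2 knockdown and 9.01, 8.87 and 8.78 in control. Here the 3 groups were fully apart, with control between the knockdowns, and Myb was -2.08 (SE 0.0583, adjusted p = 2.15e-22) from E2F2 knockdown. The calcium-binding protein gene regucalcin had the same order, with 8.55, 8.52 and 8.42 in Myb knockdown, 10.34, 10.48 and 10.39 in E2F2 knockdown and 9.73, 9.75 and 9.72 in control, and a difference of -1.9 (SE 0.0637, adjusted p = 1.43e-20). The other large falls had control between the knockdowns, at similar distances from both in CROT, CG2930 and CG7194. They were CROT, a carnitine acyltransferase gene (-2.19, SE 0.0953, adjusted p = 7.91e-18), CG2930 (-1.81, SE 0.15, adjusted p = 5.65e-11), the neuropeptide-like precursor gene Nplp2 (-1.65, SE 0.126, adjusted p = 9.06e-12), CG7194 (-1.56, SE 0.0831, adjusted p = 1.61e-15) and CG7607 (-1.55, SE 0.109, adjusted p = 1.51e-12). Nplp2 averaged 10.95 ± 0.02 in Myb knockdown and 12.6 ± 0.05 in E2F2 knockdown (SD, n = 3 each).

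The largest rises in Myb relative to E2F2 knockdown were mostly genes that lay above control in the one and below it in the other. Arpc3B encodes a paralog of a subunit of the actin-nucleating Arp2/3 complex and measured 9.01, 9.0 and 8.47 in Myb knockdown, 5.97, 5.89 and 5.75 in E2F2 knockdown and 6.92, 6.88 and 6.55 in control. The groups did not overlap, with control in between, and the difference was 2.96 (SE 0.116, adjusted p = 6.7e-19). RpS5b, a paralog of the ribosomal protein gene RpS5a, measured 9.85, 9.88 and 9.73 in Myb knockdown, 7.71, 7.65 and 7.65 in E2F2 knockdown and 8.39, 8.31 and 8.71 in control, and the order was again Myb, control, E2F2. It differed by 2.15 (SE 0.0979, adjusted p = 2.47e-17). CG34355 measured 8.16, 8.13 and 7.97 in Myb knockdown, 6.27, 6.38 and 6.03 in E2F2 knockdown and 6.95, 6.85 and 6.66 in control, with a difference of 1.86 (SE 0.0869, adjusted p = 4.57e-17) and, in a second probe set, of 1.89 (adjusted p = 1.5e-14).

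Weaker rises were found for enzymes. The kynurenine formamidase gene KFase measured 8.61, 8.62 and 8.41 in Myb knockdown, against 7.1, 7.1 and 7.17 in E2F2 knockdown, a difference of 1.42 (SE 0.0693, adjusted p = 1.39e-16). Asph, an aspartyl hydroxylase gene, measured 7.98, 7.99 and 7.85 in Myb knockdown, against 6.61, 6.59 and 6.44 in E2F2 knockdown, a difference of 1.39 (SE 0.0984, adjusted p = 1.55e-12). The sialic acid synthase gene NANS differed by 0.88 (SE 0.0935, adjusted p = 9.63e-09). In all 3 the lowest Myb array was above the highest E2F2 array, which was a condition for naming them. A germ line paralog of the alpha subunit of the nascent polypeptide-associated complex, gNacalpha, measured 7.98, 8.05 and 6.99 in Myb knockdown, against 6.12, 6.03 and 6.13 in E2F2 knockdown, so that Myb replicate 3 was well below the other Myb arrays. Its difference was 1.58 (SE 0.153, adjusted p = 1.61e-09). The rest of the 14 largest rises were E2f2, CG11825 (1.26), CG6927 (1.06), CG14434 (1.02), CG10527 (0.91), ChLD3 (0.81) and the kinase gene Mos (0.78). The smallest of the 14 rises was 0.78 and the next gene in order, l(1)G0289, had 0.75; the smallest of the 14 falls was -1.55 and the next, CG3505, had -1.41. Adjusted p-values of the 28 genes ran from 2.15e-22 to 6.96e-08 in limma, with SE from 0.0583 to 0.153.

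**Figure D2:**
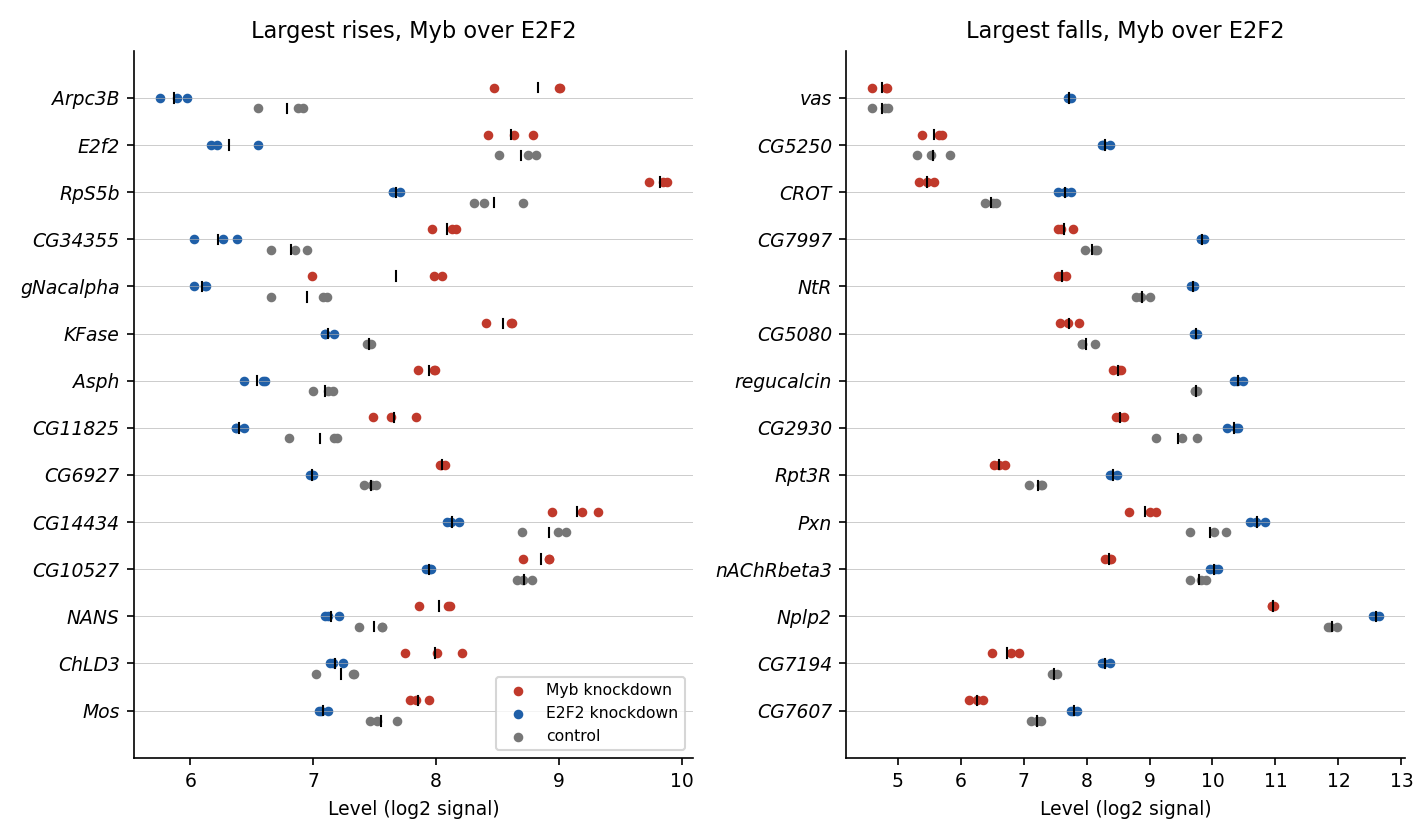
Every array of Myb knockdown, E2F2 knockdown and control is a point, with the group mean as a short bar, for the 14 largest rises and the 14 largest falls in Myb over E2F2 knockdown; the x axis is the log2 signal. In all 28 genes the 3 Myb arrays and the 3 E2F2 arrays do not overlap, a condition for being shown, and the Myb arrays overlap the control arrays for E2f2, gNacalpha, CG14434, CG10527, vas and CG5250.

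Most called genes of mitotic control, spindle and cytokinesis were lower in Myb than in E2F2 knockdown. Of 20 mitotic kinases, cyclins and checkpoint genes tested, 10 were lower, with a median of -0.17, against a median of 0.01 over all genes; without Myb replicate 2, 1 gene was called higher. Of 29 genes of kinesins, spindle and cytokinesis, 17 were lower and 2 were higher (ncd 0.16 and Patronin 0.19), with a median of -0.32. The count of higher genes was 0 without Myb replicate 1 or E2F2 replicate 3, and 1 without Myb replicate 3 or E2F2 replicate 1 or 2. Against control the first list had 6 lower in Myb knockdown and 5 higher in E2F2 knockdown; the second had 13 lower in Myb knockdown and 6 lower and 5 higher in E2F2 knockdown.

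Among the regulators, Cks30A, a small subunit that binds Cdk1, measured 6.63, 6.83 and 6.79 in Myb knockdown, 8.14, 8.08 and 8.07 in E2F2 knockdown and 7.56, 7.62 and 7.32 in control. Myb arrays were the lowest and E2F2 arrays the highest, without overlap, and the difference was -1.35 (SE 0.0794, adjusted p = 1.94e-14). The kinase gene aurB (Aurora B) measured 6.48, 6.43 and 6.06 in Myb knockdown, against 7.03, 7.03 and 7.04 in E2F2 knockdown, and mad2, of the spindle checkpoint, measured 8.54, 8.56 and 8.31 in Myb knockdown, against 9.12, 9.12 and 9.15 in E2F2 knockdown; they differed by -0.71 (SE 0.0872, adjusted p = 1.55e-07) and -0.66 (SE 0.0771, adjusted p = 5.75e-08). For fzy, the Cdc20-like activator of the anaphase-promoting complex, and tws, a subunit of the phosphatase PP2A, the Myb mean was near control. The fzy gene measured 8.39, 8.43 and 8.3 in Myb knockdown, 9.07, 9.04 and 9.14 in E2F2 knockdown and 8.47, 8.47 and 8.3 in control, a difference of -0.71 (SE 0.0905, adjusted p = 2.96e-07), and tws differed by -0.59 (SE 0.0875, adjusted p = 4.29e-06), with 0.0 in Myb and 0.59 in E2F2 knockdown against control. A second probe set of tws differed by -0.32 (adjusted p = 0.00501). The Greatwall kinase gene gwl differed by -0.58, the APC subunit gene shtd by -0.55, Mps1 by -0.3, Bub3 by -0.23 and CycB by -0.23.

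Among the motors and spindle genes, the microtubule polymerase gene msps measured 8.1, 8.35 and 8.42 in Myb knockdown, against 9.11, 9.04 and 9.2 in E2F2 knockdown, a difference of -0.82 (SE 0.0839, adjusted p = 4.54e-09). The kinesin-13 gene Klp10A measured 7.68, 7.58 and 7.79 in Myb knockdown, against 8.37, 8.43 and 8.51 in E2F2 knockdown, a difference of -0.75 (SE 0.0594, adjusted p = 1.76e-11). Klp61F, the kinesin of bipolar spindles, and Klp67A differed by -0.66 (SE 0.0617, adjusted p = 7.95e-10) and -0.6 (SE 0.0742, adjusted p = 1.66e-07); their changes against control were -0.59 in Myb and 0.07 in E2F2 knockdown, and -0.48 in Myb and 0.13 in E2F2 knockdown. The cytokinesis genes feo (-0.58), scra (anillin, -0.55) and tum (-0.54) were lower by similar amounts. The augmin subunit gene msd5, which helps build microtubules within the spindle, was below control in both, with -0.87 in Myb and -0.28 in E2F2 knockdown, and lower in Myb knockdown, with a difference of -0.6 (SE 0.0795, adjusted p = 6.5e-07).

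Of 20 condensin, cohesin, centromere and kinetochore genes, 5 were lower and 2 were higher, with a median of -0.07. The lower ones were the kinetochore genes Kmn1 (-0.76, SE 0.0837, adjusted p = 1.93e-08), Nnf1a (-0.68, SE 0.0773, adjusted p = 3.99e-08) and Spc105R (-0.41, SE 0.109, adjusted p = 0.00423), the cohesin regulator pds5 (-0.52, SE 0.122, adjusted p = 0.00142) and the condensin subunit barr (-0.48, SE 0.0698, adjusted p = 2.91e-06). Cap-D3 (0.33) and eco (0.26) were higher. In the centrosome and centriole list 3 of 14 were lower, SAK (-0.31), ana2 (-0.29) and Plp (-0.26). Over all genes tested 18.3% were lower and 13.7% higher, so the counts of both lists lay near the background.

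Among DNA replication genes more were higher than lower. Of 45 tested, 20 were higher and 4 were lower in Myb than in E2F2 knockdown, with a median of 0.14. Cdk2, the S phase kinase, measured 8.8, 8.96 and 8.79 in Myb knockdown, 8.18, 8.18 and 8.22 in E2F2 knockdown and 8.59, 8.64 and 8.35 in control, a difference of 0.66 (SE 0.0649, adjusted p = 2.27e-09). PCNA, the sliding clamp, measured 11.08, 11.03 and 10.82 in Myb knockdown, against 10.46, 10.49 and 10.52 in E2F2 knockdown, and dpa, the Mcm4 helicase subunit, measured 10.08, 10.19 and 9.91 in Myb knockdown, against 9.71, 9.64 and 9.66 in E2F2 knockdown; they differed by 0.48 (SE 0.0653, adjusted p = 7.64e-07) and 0.39 (SE 0.0585, adjusted p = 5.25e-06). In all 3 the Myb arrays were above the E2F2 arrays. Cdc45 (0.34), dUTPase (0.33), RPA3 (0.31) and Slbp (0.31), which binds histone mRNA, followed. The 4 lower genes were Cdk4 (-0.35), the GINS subunits Psf2 (-0.27) and Psf3 (-0.23) and DNAlig1 (-0.16), and the count was 2 without Myb replicate 1 or E2F2 replicate 2. Both means of Psf3 lay in the background range. The GINS subunit gene Sld5 was higher by 0.35, and its call ended with the 6 arrays alone (adjusted p = 0.0861) and without Myb replicate 1 (0.107) or 2 (0.139). Against control 14 of the 45 were higher and 1 was lower in Myb knockdown, and 5 were higher and 2 lower in E2F2 knockdown. Between Myb and E2F2 knockdown, the count of 20 higher genes fell to 13 without Myb replicate 1 and to 12 without Myb replicate 2.

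**Figure D3:**
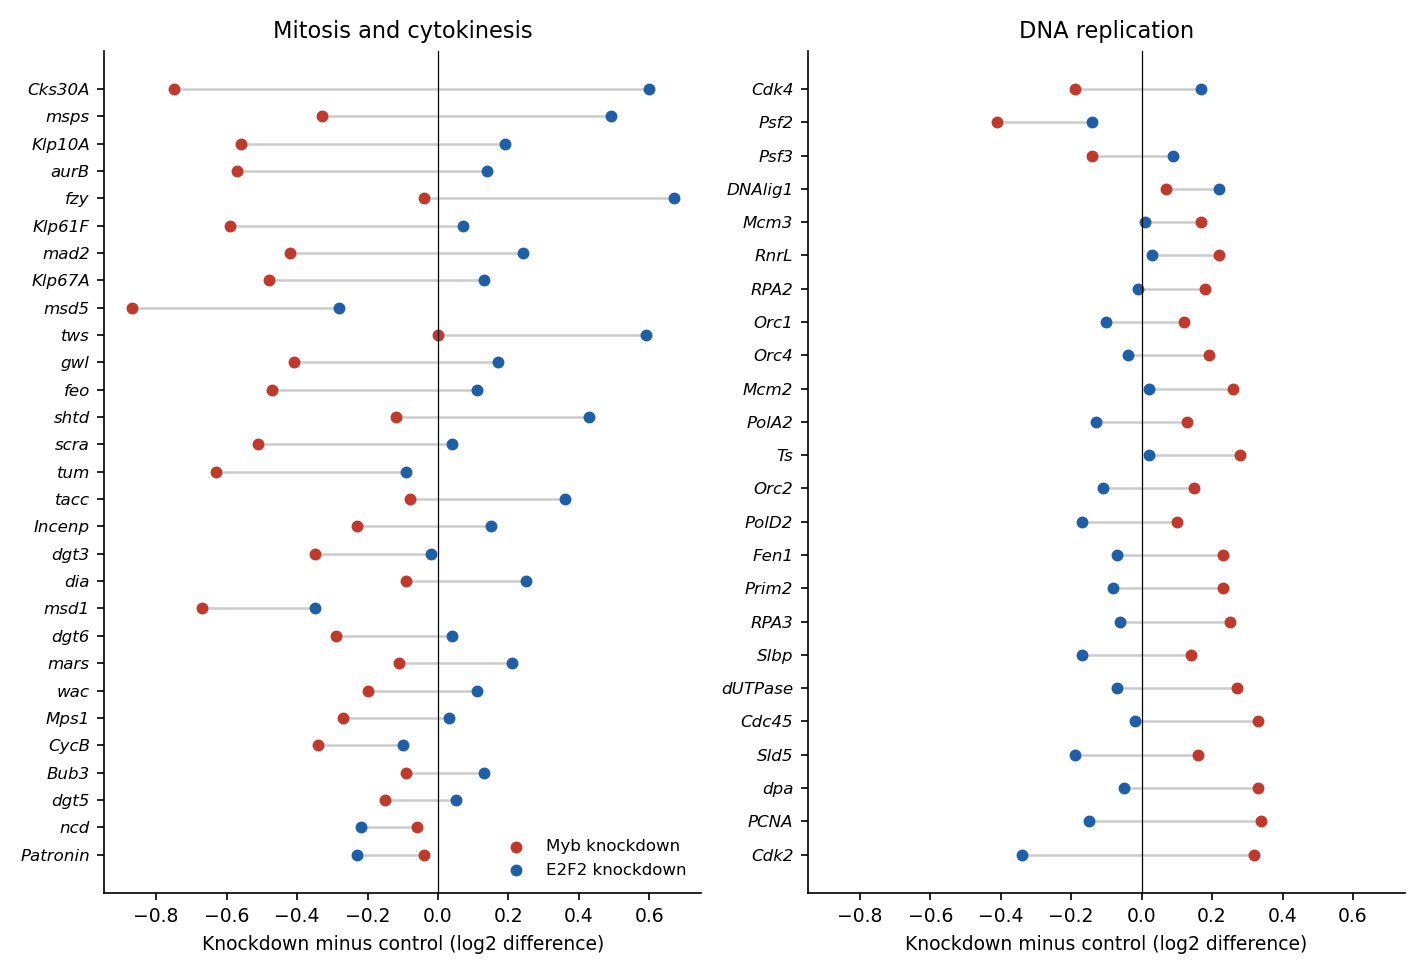
For each called gene of mitosis and cytokinesis (left) and of DNA replication (right), the 2 points give the log2 difference of Myb knockdown and of E2F2 knockdown from the same 3 control arrays, and the grey line between them is the difference tested. On the left the Myb point lies to the left of the E2F2 point for all genes except ncd and Patronin; on the right it lies to the right for all except Cdk4, Psf2, Psf3 and DNAlig1.

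Germ line genes moved in both directions. Of 26 germ line and piRNA pathway genes tested, 13 were lower and 5 were higher in Myb than in E2F2 knockdown, with a median of -0.20. After vas the lower ones were led by piRNA factors. The helicase gene spn-E measured 6.2, 6.36 and 6.25 in Myb knockdown, against 7.31, 7.44 and 7.39 in E2F2 knockdown, a difference of -1.11 (SE 0.0797, adjusted p = 2.3e-12), and squ measured 5.94, 6.03 and 5.87 in Myb knockdown, against 6.88, 7.0 and 6.94 in E2F2 knockdown, a difference of -1.0 (SE 0.0636, adjusted p = 1.39e-13). Gasz, a piRNA factor of the mitochondrial surface, differed by -0.75 (SE 0.105, adjusted p = 1.42e-06), with 0.12 in Myb and 0.87 in E2F2 knockdown against control. In the other direction swa, which localizes bicoid mRNA in the oocyte, measured 6.91, 6.95 and 6.53 in Myb knockdown, 4.49, 4.42 and 4.63 in E2F2 knockdown and 5.55, 5.39 and 5.06 in control. Its groups were fully apart with control in the middle, but control and E2F2 knockdown both lay in the background range. The difference between the knockdowns was 2.28 (SE 0.126, adjusted p = 3.63e-15 in limma). The germ line differentiation gene bam was higher by 0.66 (SE 0.17, adjusted p = 0.00325), the piRNA cluster gene del by 0.63 and cuff by 0.42; del lies next to E2f2 in the genome. The germ line markers aub and tej differed by 0.04 and 0.11 and did not pass the test, with both means of tej in the background range.

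Of 16 meiosis and testis genes 2 were higher and 4 were lower, with a median of 0.01. The meiotic recombination gene hdm measured 7.37, 7.38 and 7.24 in Myb knockdown, 5.32, 5.54 and 5.64 in E2F2 knockdown and 5.95, 6.03 and 5.94 in control, a difference of 1.83 (SE 0.101, adjusted p = 3.32e-15). The others were small: bol -0.36, topi -0.26, achi -0.24, mia -0.19 and aly 0.21, where the call of aly ended without Myb replicate 1 (adjusted p = 0.0653) or E2F2 replicate 3 (0.069). A second probe set of achi differed by -0.05 (adjusted p = 0.53).

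Of 17 tissue-restricted paralogs of housekeeping genes tested, 4 were higher (Arpc3B, RpS5b, COX4L and RpS28a) and 3 were lower. COX4L lay in the background range in both knockdowns. Rpt3R, a testis paralog of a proteasome ATPase, measured 6.71, 6.53 and 6.61 in Myb knockdown, 8.37, 8.39 and 8.48 in E2F2 knockdown and 7.3, 7.28 and 7.09 in control, with the groups apart and control in between, and differed by -1.8 (SE 0.0964, adjusted p = 1.8e-15). RpS19b, a paralog of RpS19a, measured 7.85, 7.84 and 7.51 in Myb knockdown, against 8.72, 8.86 and 8.78 in E2F2 knockdown, a difference of -1.05 (SE 0.0964, adjusted p = 4.95e-10). So of the ribosomal paralogs RpS5b was higher and RpS19b lower in Myb knockdown, while of all 29 cytosolic ribosomal protein genes tested 4 were higher and 4 lower, with a median of -0.02. These counts rest on single arrays: 2 were higher without Myb replicate 1 or E2F2 replicate 1 or 3, 1 was lower without Myb replicate 3 and 2 were lower without E2F2 replicate 1. ATPsynepsilonL was below control in both, with -0.79 in Myb and -0.52 in E2F2 knockdown, and lower in Myb knockdown, with a difference of -0.27.

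**Figure D4:**
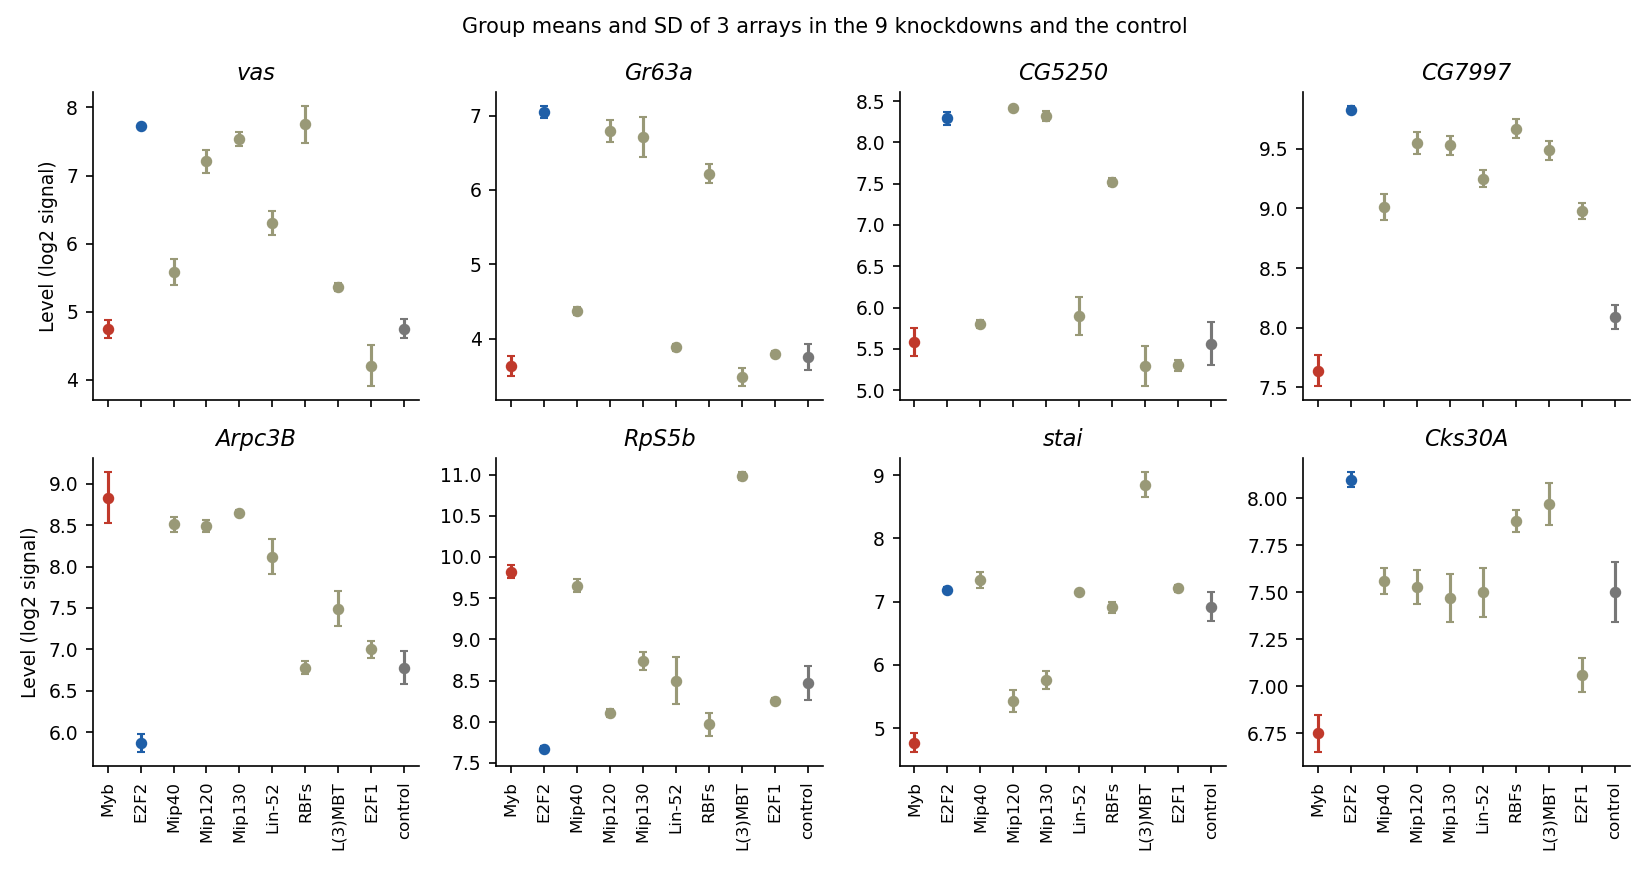
Mean log2 signal with SD (n = 3 arrays) of 8 genes in the 9 knockdowns and the control. The E2F2 mean of vas is 7.72 and that of RBFs 7.75, and the Myb mean of stai, 4.77, is the lowest of the 10.

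Levels in all other knockdowns are given for 5 of the genes named above, where RBFs stands for the double knockdown of RBF1 and RBF2. The vas mean was 4.75 ± 0.13 in Myb and 7.72 ± 0.03 in E2F2 knockdown (SD, n = 3 each), beside 7.75 ± 0.27 in RBFs, 7.21 ± 0.17 in Mip120, 7.54 ± 0.1 in Mip130, 5.59 ± 0.19 in Mip40, 6.3 ± 0.18 in Lin-52, 5.36 ± 0.06 in L(3)MBT and 4.21 ± 0.3 in E2F1 knockdown and 4.75 ± 0.14 in control. The high levels were those of E2F2, RBFs, Mip120 and Mip130, with Lin-52, Mip40 and L(3)MBT between these and control. The means of Lin-52, Mip40, L(3)MBT and control lay in the background range given above, so their order can be background. Gr63a was at 3.63 ± 0.13 in Myb and 7.05 ± 0.08 in E2F2 knockdown, beside 6.22 ± 0.13 in RBFs, 6.79 ± 0.15 in Mip120, 6.71 ± 0.27 in Mip130, 4.37 ± 0.06 in Mip40, 3.88 ± 0.05 in Lin-52, 3.48 ± 0.12 in L(3)MBT and 3.79 ± 0.04 in E2F1 knockdown and 3.75 ± 0.18 in control. It was high in the same 4 knockdowns as vas. Arpc3B was at 8.83 ± 0.31 in Myb and 5.87 ± 0.11 in E2F2 knockdown, beside 6.78 ± 0.08 in RBFs, 8.49 ± 0.07 in Mip120, 8.65 ± 0.03 in Mip130, 8.51 ± 0.09 in Mip40, 8.12 ± 0.21 in Lin-52, 7.49 ± 0.21 in L(3)MBT and 7.0 ± 0.1 in E2F1 knockdown and 6.78 ± 0.2 in control. E2F2 knockdown had the lowest mean. The germ line gene swa was at 6.8 ± 0.23 in Myb and 4.51 ± 0.11 in E2F2 knockdown, beside 5.16 ± 0.18 in RBFs, 6.69 ± 0.23 in Mip120, 6.75 ± 0.11 in Mip130, 6.93 ± 0.14 in Mip40, 7.04 ± 0.19 in Lin-52, 6.86 ± 0.15 in L(3)MBT and 5.08 ± 0.08 in E2F1 knockdown and 5.33 ± 0.25 in control. Here E2F2, RBFs and E2F1 knockdown had means below that of control, but all of these means lay in the background range. The stathmin gene stai was at 4.77 ± 0.15 in Myb and 7.19 ± 0.04 in E2F2 knockdown, beside 6.91 ± 0.09 in RBFs, 5.43 ± 0.18 in Mip120, 5.76 ± 0.14 in Mip130, 7.34 ± 0.13 in Mip40, 7.16 ± 0.03 in Lin-52, 8.85 ± 0.2 in L(3)MBT and 7.21 ± 0.06 in E2F1 knockdown and 6.92 ± 0.23 in control. It was low in Myb, Mip120 and Mip130 knockdown and highest in L(3)MBT knockdown. CG7997 was between 8.98 and 9.67 in the 7 other knockdowns, with 7.64 ± 0.13 in Myb, 9.83 ± 0.03 in E2F2 knockdown and 8.09 ± 0.1 in control. These levels were not tested against each other.

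Genes that mark the hemocyte character of the cells were more often lower than higher in Myb relative to E2F2 knockdown. Of 20 hemocyte and phagocytosis genes, 10 were lower and 3 higher (1 without E2F2 replicate 1), with a median of -0.20, and of 14 basement membrane and matrix genes 8 were lower and 1 higher, with a median of -0.27; Pxn and Ppn are in both lists. Pxn, the peroxidasin that crosslinks collagen IV, measured 9.01, 9.11 and 8.68 in Myb knockdown, 10.69, 10.59 and 10.84 in E2F2 knockdown and 10.21, 10.03 and 9.65 in control. Its groups did not overlap, with control in between, and the difference was -1.77 (SE 0.132, adjusted p = 4.81e-12). Hml measured 10.68, 10.65 and 10.76 in Myb knockdown, against 11.61, 11.38 and 11.54 in E2F2 knockdown, a difference of -0.82 (SE 0.0668, adjusted p = 4.01e-11). The GATA factor gene srp, which specifies blood cells, measured 7.65, 7.92 and 7.83 in Myb knockdown, 8.64, 8.46 and 8.56 in E2F2 knockdown and 8.06, 8.11 and 7.41 in control, a difference of -0.75 (SE 0.149, adjusted p = 0.00023). Glt (glutactin) differed by -1.39 (SE 0.162, adjusted p = 5.93e-08). Of the matrix genes, Tig (tiggrin, an integrin ligand) measured 7.86, 7.85 and 7.9 in Myb knockdown, against 9.16, 9.08 and 9.29 in E2F2 knockdown, a difference of -1.31 (SE 0.103, adjusted p = 1.64e-11), and the laminin chains LanB1, LanA and LanB2 differed by -0.68 (SE 0.119, adjusted p = 4.97e-05), -0.5 (SE 0.122, adjusted p = 0.00203) and -0.29. The collagen IV genes vkg (-0.1) and Col4a1 (0.04) did not pass the test, and drpr, a receptor for engulfing dying cells, was higher by 0.36. The summed linear signal of the 11 hemocyte markers on the array, on a log2 scale, was 12.31 to 12.43 in Myb, 12.99 to 13.14 in E2F2 knockdown and 12.65 to 12.86 in control. Such a sum is weighted to its brightest members, Hml and Ppn, and 4 of the 11 lay in the background range, so it does not describe the whole list. Against control the hemocyte list had 1 higher and 5 lower in Myb knockdown, and 9 higher and 0 lower in E2F2 knockdown. The matrix list had 1 higher and 3 lower in Myb knockdown, and 6 higher and 0 lower in E2F2 knockdown. For srp the differences from control were -0.06 in Myb and 0.69 in E2F2 knockdown, and for Hml -0.58 and 0.24. In RNA from whole cultures a changed share of cells of one kind and a changed level per cell cannot be told apart.

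Of 63 mitochondrial ribosomal protein genes tested, 23 were higher and 2 lower in Myb than in E2F2 knockdown, with a median of 0.14, and their calls against control were 1 higher and 1 lower in Myb and 1 higher and 20 lower in E2F2 knockdown. The largest were mRpL2 (0.45, SE 0.0601, adjusted p = 7.4e-07) and mRpL20 (0.4, SE 0.0792, adjusted p = 0.000239); mRpL2 measured 8.81, 8.92 and 8.67 in Myb knockdown, against 8.31, 8.36 and 8.39 in E2F2 knockdown. The lower ones were mRpL33 (-0.5, SE 0.095, adjusted p = 0.000153) and mRpS34 (-0.23), of which 1 call was left without Myb replicate 1 or 3 or any one of the E2F2 replicates. The count of higher genes rests on single arrays: it was 9 without Myb replicate 1, 10 without Myb replicate 2, 41 without Myb replicate 3 and 14 with the 6 arrays alone. Of 57 respiratory chain and ATP synthase genes 5 were higher and 4 lower, and the count of higher genes was 24 after quantile normalization, 18 after cyclic loess, 16 without Myb replicate 3 2 without Myb replicate 1 or 2 and 3 without E2F2 replicate 1; ND-15, a complex I subunit, was lower, with a difference of -0.72 (SE 0.0965, adjusted p = 6.53e-07). Of 27 proteasome subunits 3 were higher and 2 lower. The count of higher subunits was 12 after quantile normalization, 8 after cyclic loess and 9 without Myb replicate 3, but 0 with arrays centred on their medians, with the 6 arrays alone and without Myb replicate 1 or 2 or E2F2 replicate 1 or 2, and 1 without E2F2 replicate 3.

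Stress and damage lists had more members lower than higher in Myb than in E2F2 knockdown. Over all genes tested 18.3% were lower and 13.7% higher. Against control the stress list had 0 calls in Myb knockdown, and 9 higher and 1 lower in E2F2 knockdown. The damage list had 2 higher and 0 lower in Myb knockdown, and 9 higher and 0 lower in E2F2 knockdown. Shares against control over all genes were 2.3% higher and 3.5% lower in Myb, and 16.0% higher and 9.12% lower in E2F2 knockdown. Of 26 heat shock, oxidative and metal stress genes 10 were lower and 2 higher, with a median of -0.12. They included the oxidative stress regulators Keap1 (-0.74, SE 0.112, adjusted p = 5.44e-06) and cnc (-0.61, SE 0.115, adjusted p = 0.000126, and -0.25 with adjusted p = 0.0431 in a second probe set), the glutathione transferase GstE6 (-0.72, SE 0.144, adjusted p = 0.00027) and catalase, Cat (-0.53, SE 0.0745, adjusted p = 1.68e-06). Of 27 DNA damage and apoptosis genes 10 were lower and 2 higher (1 without Myb replicate 1 or 2 or E2F2 replicate 2), with a median of -0.10, led by the ATM kinase gene tefu, which measured 7.37, 7.42 and 7.3 in Myb knockdown, against 8.01, 7.87 and 8.11 in E2F2 knockdown and differed by -0.63 (SE 0.0859, adjusted p = 8.29e-07). The JNK gene bsk (-0.47), its phosphatase puc (-0.42) and mre11 (-0.37) were also lower. Of 12 genes of RNA interference itself, the method used here, 6 were lower (3 without Myb replicate 1) and 1 was higher. The lower ones included r2d2 (-0.5, SE 0.0899, adjusted p = 6.48e-05) and gw (-0.44, SE 0.101, adjusted p = 0.00123), whose second probe set differed by -0.3 (adjusted p = 0.0531). Dcr-2 differed by -0.29, and lost its call without Myb replicate 1 (adjusted p = 0.0583) or 2 (0.0573) or E2F2 replicate 3 (0.0894). Set against control, 1 of the 12 was higher and 0 lower in Myb knockdown, and 5 were higher and 0 lower in E2F2 knockdown.

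**Figure D5:**
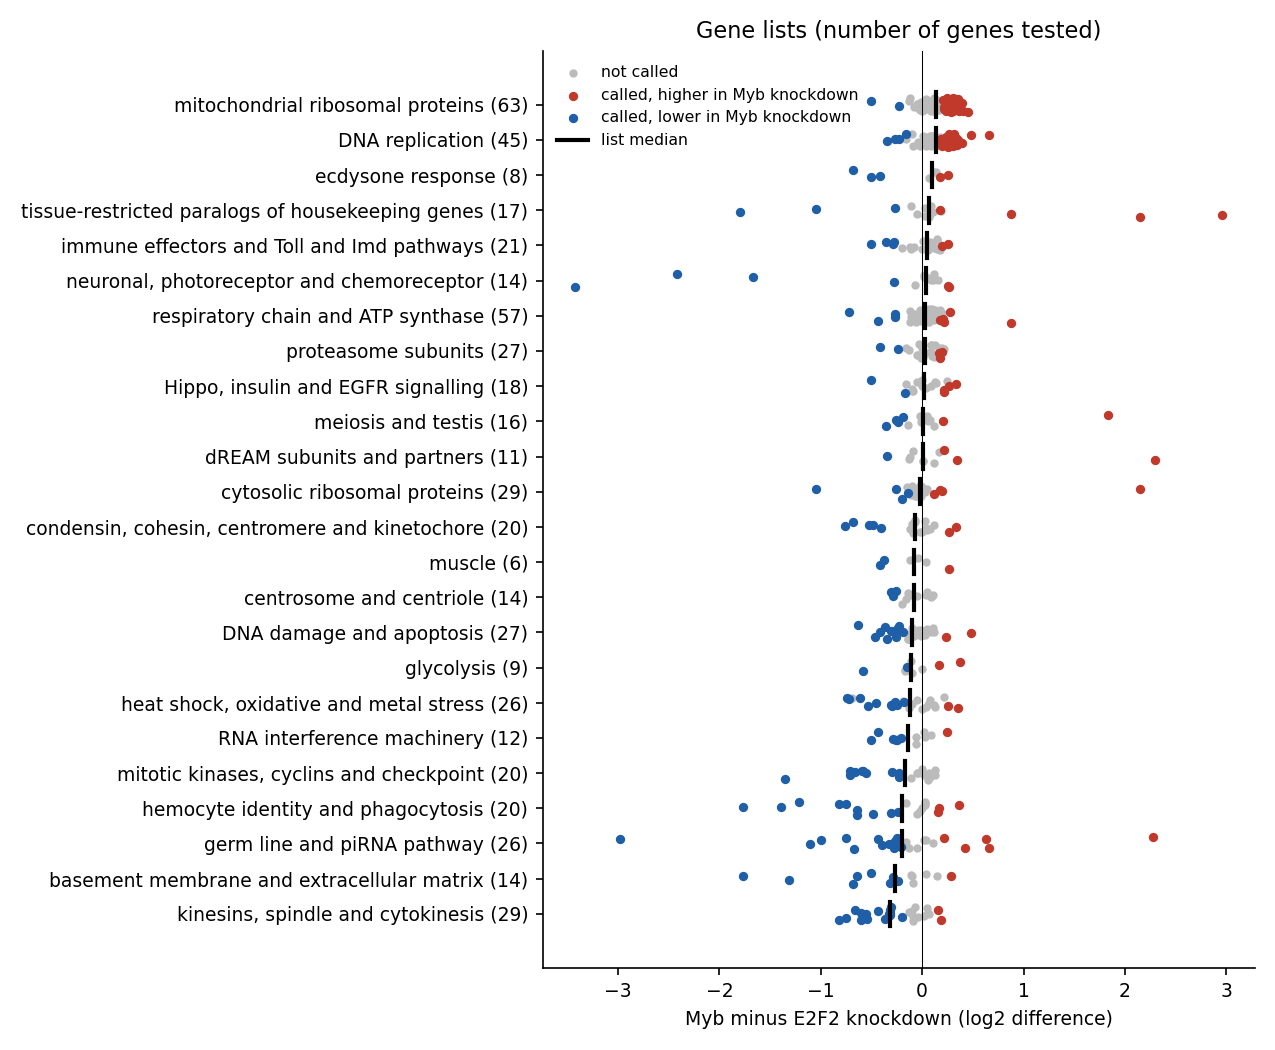
Each point is a tested gene of a list, placed by its log2 difference, Myb minus E2F2 knockdown; coloured points were called, and the black bar is the list's median. The medians run from -0.32 for kinesins, spindle and cytokinesis to 0.14 for DNA replication and mitochondrial ribosomal proteins, against 0.01 over all genes.

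The remaining lists were small or had calls both ways. Of 14 neuronal, photoreceptor and chemoreceptor genes 4 were lower (Gr63a, stai, nAChRbeta3 and brp) and 2 were higher (Appl and Gr21a); the call of Gr21a ended without E2F2 replicate 2 (adjusted p = 0.0653) or 3 (0.0566). Of 6 muscle genes 2 were lower, the myosin light chain gene Mlc2 (-0.42) and flw (-0.38), and Strn-Mlck was higher (0.26); a second probe set of flw differed by 0.09 (adjusted p = 0.275). Of 21 immune genes 4 were lower, among them Rel (-0.28), the Imd pathway factor, and 2 were higher. Such counts lay near the shares over all genes tested, 18.3% lower and 13.7% higher. Without Myb replicate 3, E2F2 replicate 1 or E2F2 replicate 3 the lower genes were 2; the higher genes were 1 without Myb replicate 2 or E2F2 replicate 1 and 0 without E2F2 replicate 3. Of 8 ecdysone response genes 3 were lower and 2 higher (1 when any array but Myb replicate 3 was left out); Cth was lower, with a difference of -0.68 (SE 0.089, adjusted p = 4.79e-07). ImpL2, which binds insulin-like peptides, was lower, with a difference of -0.5 (SE 0.12, adjusted p = 0.00181), while of all 18 genes of Hippo, insulin and EGFR signalling 2 were lower and 4 higher. Of 9 glycolysis genes 2 were lower (1 without Myb replicate 1 or 3 or E2F2 replicate 1) and 2 higher (1 without Myb replicate 1 or 2 or E2F2 replicate 2), and the hexokinase gene Hex-A was lower, with a difference of -0.58 (SE 0.0888, adjusted p = 6.71e-06).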

How the data were processed

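RNA of the 30 samples was hybridised to Affymetrix fly arrays; per the labels' protocols, 10 micrograms of total RNA, taken after 4 days of RNAi, gave biotinylated cRNA for each. The authors deposited values between 1.949 and 13.6, read here as log2 signals because of that range. GCOS 1.2.0 is listed in the submitters' processing notes; how signals were summarized and normalized is not given in the sources used here. Values were used as deposited.

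After 44 control probe sets were left out, 13966 remained, and 12442 of them carried 1 gene name (10843 genes) in the platform annotation; 12393 were matched by gene ID to the RefSeq table (Release 6), which gave symbols and gene order only. A probe set was tested if 3 or more arrays had it above their own median. Group means of all 30 arrays were fitted with lmFit of limma 3.58.1 under R 4.3.3, and eBayes used a trend on intensity with 20 residual degrees of freedom. Benjamini-Hochberg adjustment (two-sided p) was done within each of 3 contrasts. The number of arrays limits the precision. The steps were tested on simulated data.

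Named are the dREAM genes; the 14 largest rises and falls among called genes whose Myb and E2F2 arrays did not overlap and whose higher mean was above 7.46, the median of tested values; and up to 5 called members of each of 24 lists. Other list members in the text were chosen after their values were seen. Each gene was read by its brightest tested probe set. Members and lists were chosen with earlier results of these data known, so their counts carry no test. The probe sets of achi and Ppn have a suffix for shared probes.

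Replicate numbers were checked as pairs by correlating deviations from group means. Same-numbered arrays gave -0.17 to -0.04 for Myb and E2F2 and -0.26 to -0.11 for E2F2 and control. For Myb and control they gave 0.21, 0.4 and 0.58. However, Myb 1 with control 2 gave 0.21 and Myb 2 with control 1 gave 0.39, much like the same-numbered arrays. Only replicate 3 stood apart from the other numbers (-0.54 to -0.29), so the check could not decide on pairing by number. Replicate 3 of Myb and of control deviated alike, and E2F2 arrays did not share this with control. Within 6 arrays, a term for the replicate number changed calls from 200 to 543 for Myb against control. For E2F2 against control it changed them from 1983 to 1529. The bearing of this on the counts against control was not tested. Alternatives fixed with the design were quantile, median and cyclic loess scaling, other filters, array weights, no trend, 1 probe set per gene, a fold threshold, fewer arrays, a replicate block and leaving out each replicate. Promoter sequences and chromosome arms were not analysed here. Python 3.11.15 (pandas 2.3.3, numpy 2.4.6, matplotlib 3.10.9) made the tables and figures.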

Additional observations from a re-analysis of the deposited data

How the results depend on the processing

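The count of 2522 probe sets called between Myb and E2F2 knockdown stayed between 1839 (filter at the 70th percentile) and 3749 (array weights) under every alternative except a test against a fold of 1.2, which called 416. Without 1 array it was 1906 to 2472. Centring on array medians gave 817 higher and 1577 lower, and no filter 1794 higher and 1719 lower. For Myb knockdown against control, 451 became 766 with array weights and 200 with the 6 arrays alone; for E2F2 knockdown against control the range was 1326 to 2805. A replicate block gave 2478 for the direct comparison, 444 for Myb and 1925 for E2F2 knockdown against control, and 2087, 543 and 1529 within 6 arrays. Under the fold of 1.2, lower genes numbered 8 of 29 for the spindle list, 6 of 26 for the germ line, 5 of 20 for hemocytes and 1 of 27 for DNA damage, and higher genes 2 of 45 for replication and 1 of 63 for the mitochondrial ribosome. With array weights 48 of those 63 were higher. The cause of these changes was not tested. Of 129 named genes called, 67 kept the call under every alternative run and no difference changed sign; the other 62 lost it at least once, 42 of them only under the fold threshold, whose construction asks for larger differences, and 20 under another setting. Those 20 were Caf1-55, Sld5, aly, Gr21a, key, Stat92E, AttD, Hsc70-5, Dcr-2, vig, Fbp1, EcR, wts, Pgk, Eno, RpS27A, RpL39, Prosalpha5, Prosbeta2 and Rpn11. Signal over background limits the genes whose means lie in the range of the control probe sets.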

Other observations

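Some large differences fell below the level required for naming, and these genes were chosen after their values were seen. CG5592 measured 4.43, 4.66 and 4.8 in Myb knockdown, 7.41, 7.2 and 7.33 in E2F2 knockdown and 4.86, 4.64 and 4.81 in control, with Myb knockdown and control together in the background range and a difference from E2F2 knockdown of -2.68 (SE 0.0846, adjusted p = 4.16e-21) in limma. CG15130 had a similar order, with 5.78, 5.47 and 5.58 in Myb knockdown, against 7.1, 7.04 and 7.13 in E2F2 knockdown. In the other direction superdeath measured 7.36, 7.19 and 7.1 in Myb knockdown, 5.5, 5.39 and 5.63 in E2F2 knockdown and 5.64, 5.71 and 5.87 in control, a difference of 1.71 (SE 0.0753, adjusted p = 9.95e-18), and CG13148 measured 7.12, 7.08 and 6.84 in Myb knockdown, against 5.02, 5.12 and 5.05 in E2F2 knockdown, a difference of 1.95 (SE 0.101, adjusted p = 6.53e-16). Since their lower means lie in the background range, these differences are lower bounds.

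Called genes were also read by their order in the genome. Of 3441 pairs of neighbouring protein-coding genes with both members tested, 74 (2.15%) were both higher in Myb than in E2F2 knockdown, 167 (4.85%) were both lower and 170 (4.94%) were opposite. The shares of single genes in these pairs, 13% higher and 19.5% lower, multiply to 1.68%, 3.79% and 5.05%. In one pair CG3164 (-1.36) and the glutamine synthetase gene Gs1 (-1.06) were both lower; CG4822 (-0.93) lies on the other side of CG3164. The pair yellow-f (-0.97) and yellow-f2 (-0.77) are related in sequence, and shared probes were not tested. CG14931 (0.79) and CG14932 (0.71) were both higher. The lower means of CG3164, yellow-f, CG14931 and CG14932 lay in the background range.

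Of 680 tested probe sets without a gene name, 86 were higher and 157 lower, and of 191 shared by several genes 32 were higher and 32 lower. They are not named here.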
